A study of Arabidopsis thaliana with 8 samples.

Results

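In wild-type Arabidopsis thaliana floral stems, RNA bound to tagged ribosomes was compared with the RNA of the whole stem over all nuclear genes. The members were the 32548 nuclear loci of the count tables, of which 21202 passed a filter on low counts and were tested, in 2 libraries titled Col-0 WT TRAP and 2 titled Col-0 WT Total out of the 8 libraries of the series. All 4 libraries came from floral stem of plants labelled Columbia-0 wild type, grown under 16 h days, and each TRAP or Total group had 2 biological replicates. The remaining 4 libraries, 2 msh1 Total and 2 msh1 TRAP from the same background and tissue, entered the fit and served as the nearest comparison. No label gives the age of the plants or says whether plants were pooled. The construct is not in the labels: as known from the study, it was the ribosomal protein RPL18 with a FLAG tag under the promoter of MSH1, which encodes a DNA mismatch repair homologue of plastids and mitochondria. Whether the plants behind the Total libraries carried it is not stated in the labels.

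Translating ribosome affinity purification (TRAP) captures ribosomes that contain a tagged subunit protein, together with the mRNAs on them and the nascent chains they are making. Because the tagged protein is made from a chosen promoter, the method is used to read the ribosome-bound mRNAs of the cells in which that promoter is active. FLAG is a short hydrophilic peptide that opens with aspartate, tyrosine and lysine, and antibodies to it bind those residues. RNA of small nuclear and nucleolar particles is not translated.

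The fit called 1076 of 21202 genes (5.07%) at an edgeR adjusted p under 0.05, of which 722 were higher in WT TRAP (3.41% of all tested) and 354 lower (1.67%). Changes of at least 2-fold numbered 322 rises (1.52%) and 123 falls (0.58%), and those of at least 4-fold 47 rises (0.222%) and 35 falls (0.165%). The 2 TRAP values lay outside the range of the 2 Total values for 55.6% of all genes tested, so lack of overlap by itself marks little. Counts of calls rested on single libraries: 167 genes were called once WT Total 1 was left out, 193 after WT Total 2, 698 after WT TRAP 1 and 316 after WT TRAP 2. Leaving out msh1 Total 1 or 2 gave 642 or 639, and leaving out msh1 TRAP 1 or 2 gave 2310 or 2245. Every gene called again in one of these 8 fits had the same direction, and the 24 genes with the largest changes kept their calls in all of them.

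A short protein motif was frequent among the genes that rose most, though not in all of them. A search of the longest coding model of each gene for the pattern DYKxxD (aspartate, tyrosine, lysine, any 2 residues, aspartate; forward order only), which FLAG also contains, found it in 55 of 27409 proteins and in 44 of the 19873 tested genes with a protein (0.221%). Of these 44, 29 rose in WT TRAP (65.9%), 0 fell, and their median log2 fold change was 1.42, beside 3.38% higher, 1.63% lower and a median of -0.06 among the 19829 tested genes without it. Rises of at least 4-fold were called for 15 of the 44 and for 29 of the 19829. The other 11 of the 55 had at most 32 counts in the 4 WT libraries together and were not tested.

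The coding DNA at the motif is given for genes that rose by very different amounts and for 2 that were not called, to show the codons behind the pattern and their flanks. The paralogs PSAT and AT2G17630 have the same motif bases, and the codons are spelled in several ways among the other genes. Each line is the sense strand, 5′ to 3′, from the TAIR10.1 genome of RefSeq, with the 6 motif codons in capitals between 2 flanking codons on each side.
FTIP1, chr5:2129528-2129557, minus strand: caagaaGACTATAAGCTTAAAGACatgaaa
AT1G19480, chr1:6744781-6744810, plus strand: ggtgaaGATTATAAGGCGGAGGATatctcc
AT1G60095, chr1:22159975-22160004, plus strand: tcaagcGATTATAAGTGGGACGATggatcc
PSAT, chr4:16905078-16905107, plus strand: atgcttGATTACAAGATTCATGATgagaat
AT2G17630, chr2:7667486-7667515, plus strand: atgcttGATTACAAGATTCATGATgagaac
AT4G10320, chr4:6404045-6404074, minus strand: aagaatGATTATAAGACTATGGATttgcct
AT1G64880, chr1:24106016-24106045, plus strand: ggacttGATTACAAAGACATTGATgccgaa
UGE2, chr4:12432787-12432816, plus strand: ggaaccGACTACAAGACAAAGGATggtaca
ATB' BETA, chr3:3030865-3030894, plus strand: gaaaaaGATTATAAGCTTGCGGATacagta
AT1G57720, chr1:21379776-21379805, plus strand: ttctgtGACTATAAGTACAACGATgagaac
PPa6, chr5:2991560-2991589, minus strand: tttagaGACTACAAGATCCCAGATggaaag
TGG1, chr5:9080048-9080077, minus strand: actgccGATTACAAGCGGATTGATtatctc

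**Figure D1:**
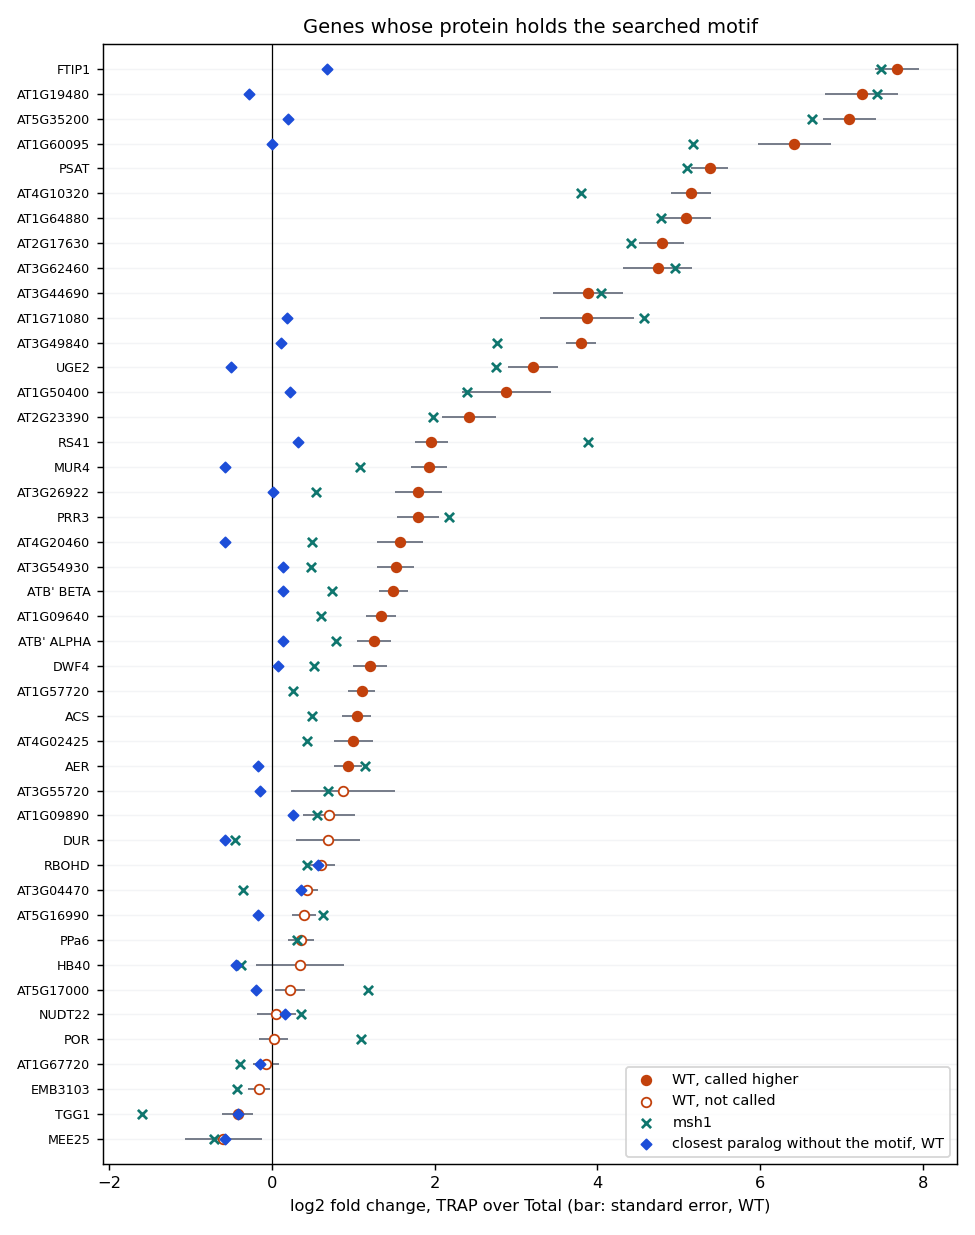
Log2 fold change of TRAP over Total for the 44 tested genes whose protein holds DYKxxD, with the standard error in WT as a bar (2 libraries per group), the value in msh1 as a cross and, where one exists, the closest tested paralog without the motif as a diamond. The 29 filled points were called higher in WT and reach 7.68, while the paralogs stay between -0.58 and 0.68.

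FTIP1 (AT5G06850, chromosome 5, 2126944 to 2130509), an endoplasmic reticulum membrane protein that helps move the florigen FT out of phloem companion cells, had the largest rise. It had 17.9 and 16.7 CPM (read counts scaled by library size with TMM factors) in WT Total and 2950 and 4161 CPM in WT TRAP. The log2 fold change of TRAP over Total was 7.68 ± 0.27 (SE, edgeR adjusted p = 2.27e-08). Both TRAP libraries lay far above both Total libraries, and the motif begins at residue 12 of 794.

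AT5G35200 (chromosome 5, 13462155 to 13466150) encodes an ANTH-domain protein, a class that binds membrane phosphoinositides and clathrin. Its levels were 68.9 and 74.8 CPM in WT Total and 8761 and 10900 CPM in WT TRAP, giving a log2 change of 7.10 ± 0.32 (edgeR adjusted p = 1.23e-07). AT1G19480 (chromosome 1, 6744353 to 6746635), of the DNA glycosylase superfamily, went from 9.69 and 9.61 to 1224 and 1720 CPM, or 7.25 ± 0.45 (edgeR adjusted p = 2.19e-06). In both genes the 2 Total libraries agreed closely and the groups were far apart. AT1G60095 (chromosome 1, 22159694 to 22162426), a lectin-family gene, had 1 and 5 counts in WT Total against 129 and 238 in WT TRAP. Its Total counts were at or near the floor of 3, so no fold is given (edgeR adjusted p = 8.78e-06).

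Serine synthesis from phosphoglycerate was represented by both phosphoserine aminotransferase genes. PSAT (AT4G35630, chromosome 4, 16904059 to 16905722) had 104 and 103 CPM in WT Total and 3533 and 5094 CPM in WT TRAP, giving a log2 change of 5.38 ± 0.23 (edgeR adjusted p = 1.18e-07). Its paralog AT2G17630 (chromosome 2, 7666548 to 7668065) had 22.0 and 15.7 CPM in WT Total and 389 and 650 CPM in WT TRAP, or 4.79 ± 0.28 (edgeR adjusted p = 1.55e-06). The proteins are 85.4% identical and both hold the motif, in codons 294 to 299 and 286 to 291. No other gene of the 6 tested for this pathway was called. The noncoding locus AT4G09225 also rose, from 43.5 and 43.3 CPM to 1183 and 1652 CPM, but it lies wholly inside PSAT on the opposite strand. SERAT3;2, with a log2 fold change of 3.46, shares 144 nt of exon with PSAT. The library preparation does not mark strand, so reads of the 3 loci could not be told apart where they overlap.

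AT4G10320 (chromosome 4, 6397271 to 6404672), a class I aminoacyl-tRNA synthetase that charges a transfer RNA for translation, had 157 and 139 CPM in WT Total and 4109 and 6405 CPM in WT TRAP. The log2 fold change was 5.15 ± 0.25 (edgeR adjusted p = 1.93e-07). AT1G64880 (chromosome 1, 24105611 to 24109243), a ribosomal protein S5 family gene, went from 43.3 and 36.7 CPM to 1122 and 1610 CPM, or 5.09 ± 0.31 (edgeR adjusted p = 2.12e-06). AT3G62460, annotated as a putative endonuclease or glycosyl hydrolase, went from 9.19 and 7.19 CPM to 177 and 259 CPM, or 4.74 ± 0.42 (edgeR adjusted p = 5.81e-05). In all 3 the Total libraries stayed close together while WT TRAP 2 was above WT TRAP 1.

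Among enzymes of nucleotide sugars, motif genes differed from one another. UGE2, which interconverts UDP-glucose and UDP-galactose, had 10.03 and 10.09 CPM in WT Total and 80.8 and 106 CPM in WT TRAP, a rise of 3.21 ± 0.31 on the log2 scale (edgeR adjusted p = 0.000107). MUR4, the UDP-xylose epimerase that supplies arabinose for cell walls, went from 29.0 and 29.9 CPM to 88.5 and 136 CPM, or 1.93 ± 0.22 (edgeR adjusted p = 0.00046). Its relative AT4G20460 went from 4.13 and 2.63 to 8.98 and 10.9 CPM, or 1.57 ± 0.28 (edgeR adjusted p = 0.00817). The further relatives DUR and MEE25 also hold the motif and were not called, at 0.69 ± 0.39 (edgeR adjusted p = 0.345) and -0.60 ± 0.47 (edgeR adjusted p = 0.524). The call of AT4G20460 ended without WT Total 2 or WT TRAP 2, with an adjusted p of up to 0.142.

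In the B' family of regulatory subunits of protein phosphatase 2A, which direct the phosphatase to its substrates, the 3 motif genes rose together. ATB' BETA had 38.5 and 36.2 CPM in WT Total and 94.0 and 116 CPM in WT TRAP, or 1.49 ± 0.18 (edgeR adjusted p = 0.00075). AT3G54930 rose by 1.52 ± 0.23 (edgeR adjusted p = 0.00334) and ATB' ALPHA by 1.25 ± 0.21 (edgeR adjusted p = 0.00557). Without WT Total 2 the calls of AT3G54930 and ATB' ALPHA ended, and that of ATB' ALPHA also ended without WT Total 1 or WT TRAP 2 (adjusted p up to 0.0676 and 0.0921). Both genes for the gamma chain of elongation factor EF1B, which helps reload the factor that brings aminoacyl-tRNA to the ribosome, hold the motif and rose: AT1G09640 by 1.34 ± 0.18 (edgeR adjusted p = 0.0012) and AT1G57720 by 1.10 ± 0.17 (edgeR adjusted p = 0.00311). AT1G57720 was at 336 and 338 CPM in WT Total and 674 and 768 CPM in WT TRAP, without overlap, and its call ended without either Total library (adjusted p up to 0.0728).

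Smaller rises were called in genes of other functions. PRR3, a component of the circadian clock, rose by 1.79 ± 0.26 (edgeR adjusted p = 0.00238), and the steroid hydroxylase DWF4 of brassinosteroid synthesis by 1.20 ± 0.21 (edgeR adjusted p = 0.00778). The acetyl-CoA synthetase ACS rose by 1.04 ± 0.18 (edgeR adjusted p = 0.0058) and the alkenal reductase AER by 0.93 ± 0.17 (edgeR adjusted p = 0.00831). The calls of DWF4, ACS and AER ended without WT Total 2 or WT TRAP 2, with adjusted p up to 0.127, 0.109 and 0.167, and those of ACS and AER also ended without WT Total 1. The splicing factor gene RS41 rose by 1.96 ± 0.20 (edgeR adjusted p = 0.000165) but shares reads with an overlapping locus and is uncertain. The 29 also included AT3G44690 (3.89), AT1G71080 (3.87), AT3G49840 (3.80), AT1G50400 (2.88), AT2G23390 (2.42), AT3G26922 (1.80) and AT4G02425 (1.00), with log2 fold changes in brackets. Of these 7, AT1G50400 was not called without WT Total 1 or WT TRAP 2 (adjusted p up to 0.125), AT3G26922 without WT Total 2 (0.0806), and AT4G02425 without any one of WT Total 1, WT Total 2, WT TRAP 2 and the msh1 Total libraries (up to 0.255).

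The motif did not mark every gene that holds it. The 15 that were not called ranged from -0.60 to 0.87 and included RBOHD, the NADPH oxidase of immune bursts, at 0.60 ± 0.17 (edgeR adjusted p = 0.0662), and PPa6, a plastid pyrophosphatase, at 0.35 ± 0.16 (edgeR adjusted p = 0.232). The myrosinase TGG1, which breaks down glucosinolates, had 909 and 854 CPM in WT Total and 562 and 758 CPM in WT TRAP, or -0.42 ± 0.19 (edgeR adjusted p = 0.229). Over the 8 fits that leave out a library, the number of motif genes called higher ranged from 20 to 32 and none was called lower.

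Where the motif lies was compared after the values were seen. In 6 tested genes it begins within the first 25% of the protein, namely FTIP1, AT1G60095, AT5G35200, AT4G10320, AT1G64880 and AT1G19480. All 6 were called higher, and the 5 other than AT1G60095 had log2 fold changes of 5.09 to 7.68. In the 38 with a later motif, 23 were called higher and 9 rose at least 4-fold, with a median of 1.15. The cut was not sharp. Just past it, at 26.1 to 27.0% of the protein, AT1G71080 rose by 3.87 and AER by 0.93. AT5G16990 (0.39) and AT5G17000 (0.22) were not called there. Their motifs begin at residues 85 to 93, near residue 90 of AT1G19480.

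Close relatives without the motif gave a second view of the same families. FTIP1 and AT5G48060 are 70.2% identical, yet AT5G48060 had 4.47 and 5.05 CPM in WT Total and 5.64 and 9.52 CPM in WT TRAP, giving a log2 change of 0.68 ± 0.28 that was not called (edgeR adjusted p = 0.186). The glycosylase relative AT1G75230, 70.5% identical to AT1G19480, was at -0.29 ± 0.26 (edgeR adjusted p = 0.592), and the ANTH relative AT2G01600, 47.9% identical to AT5G35200, at 0.20 ± 0.14 (edgeR adjusted p = 0.481). UGE5, 88.8% identical to UGE2, was at -0.51 ± 0.31 (edgeR adjusted p = 0.386), and the phosphatase subunit ATB' GAMMA at 0.13 ± 0.15 (edgeR adjusted p = 0.681). The brassinosteroid enzyme CPD, a relative of DWF4, was at 0.07 ± 0.19 (edgeR adjusted p = 0.881), and TOM40, the mitochondrial import channel related to AT1G50400, at 0.22 ± 0.14 (edgeR adjusted p = 0.415).

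In all, 17 of the 29 risers had a tested paralog without the motif (blastp, at least 40% identity over at least 70% of the query), and these came to 14 distinct genes. None of the 14 was called in either direction, their log2 fold changes ran from -0.58 to 0.68 with a median of 0.09, and every one of the 17 risers was above its paralog. The risers were chosen for rising, so this count describes the pairs and tests nothing. A pair without the full motif was iPGAM2 and iPGAM1, phosphoglycerate mutases of glycolysis that are 90.2% identical. iPGAM2 holds the form EYKxxD and went from 163 and 138 CPM to 5762 and 9036 CPM, or 5.62 ± 0.32 (edgeR adjusted p = 1.22e-06). iPGAM1 has no YKxxD and went from 216 and 194 CPM to 164 and 234 CPM, or -0.04 ± 0.18 (edgeR adjusted p = 0.925).

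Looser forms of the motif, searched after the values were seen, went with smaller shares. Of 656 tested proteins with YKxxD but without the leading aspartate, 8.99% were higher, with a median of 0.09. Forms with a single change gave 15.9% of 44 for EYKxxD, 8.62% of 58 for DYKxxE, 6.06% of 33 for DYRxxD and 3.23% of 62 for DFKxxD, beside 3.52% of all proteins. Proteins with DYK but not the closing aspartate had 6.29% of 620 higher. The same letters in reversed order, DxxKYD, gave 4.08% of 49. None of these 7 forms came near the 65.9% of the full motif.

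Read from the size of the rise, the motif thinned out quickly. Of the 9 protein genes that rose at least 32-fold, 7 hold DYKxxD and all 9 hold YKxxD. The remaining pair were iPGAM2 and AT1G13880, an ELM2-domain gene. AT1G13880 went from 29.8 and 28.4 CPM to 1670 and 2082 CPM, or 6.01 ± 0.56 (edgeR adjusted p = 7.91e-05). Its paralog AT2G03470, 50.7% identical and without YKxxD, was not called, at 0.34 ± 0.14 (edgeR adjusted p = 0.215). DYKxxD was present in 6 of 14 genes that rose 8-fold to 32-fold, 2 of 21 from 4-fold to 8-fold, 12 of 262 from 2-fold to 4-fold and 2 of 393 below 2-fold. It was absent from all 323 protein genes called lower and present in 15 of 18851 not called. The share of DYKxxD in genes that rose at least 4-fold was 34.1%, and 31.5 to 42.4% over the 16 alternatives. The part of the motif in these rises was not tested, because no library without the tag or with another antibody was analysed here.

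**Figure D2:**
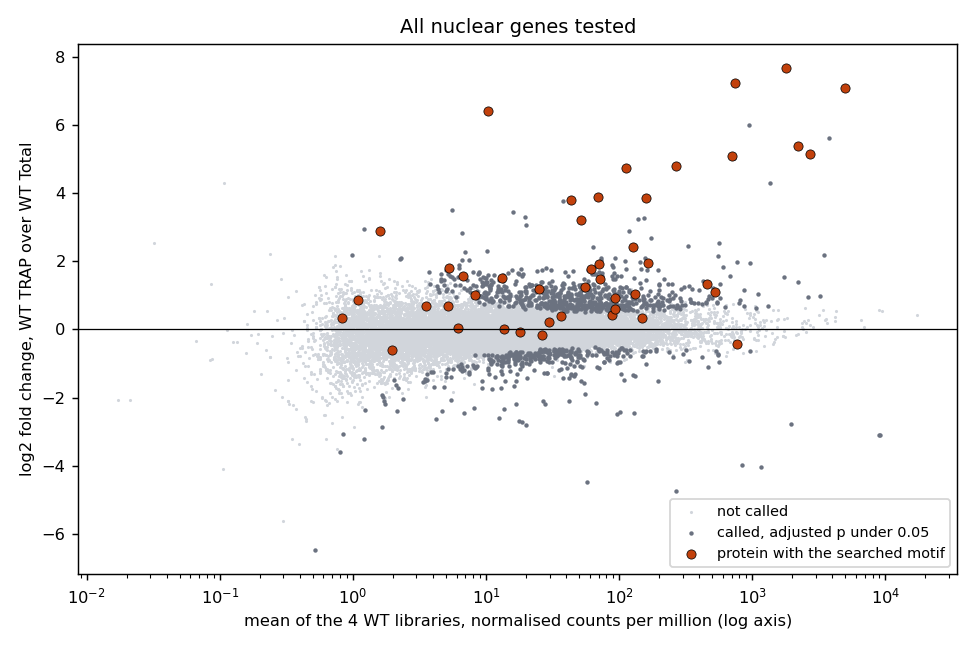
Log2 fold change of WT TRAP over WT Total against the mean level of the 4 WT libraries in normalised CPM (log axis) for all 21202 genes tested. Large points mark the 44 genes whose protein holds DYKxxD, which make up 15 of the 44 protein genes called at least 4-fold higher.

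Beyond the 12 largest rises, AT3G60080, a RING/U-box protein, and NFXL1, a zinc-finger transcription factor of stress responses, were named for their small p and hold no DYKxxD. AT3G60080 had 20.7 and 19.5 CPM in WT Total and 98.0 and 118 CPM in WT TRAP, or 2.42 ± 0.17 (edgeR adjusted p = 8.85e-06). NFXL1 had 61.0 and 58.2 CPM in WT Total and 261 and 249 CPM in WT TRAP, or 2.10 ± 0.15 (edgeR adjusted p = 8.85e-06). Replicates of both genes agreed closely and the groups did not overlap. The 12 genes with the largest rises held 0.0682 and 0.0651% of all gene counts in WT Total and 3.18 and 3.98% in WT TRAP. That sum takes in both PSAT and the AT4G09225 inside it, so shared reads may enter it more than once.

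The largest falls were mostly transcripts whose 2 Total libraries also differed from each other. BXL3, a beta-xylosidase of the cell wall, had 2040 and 1086 CPM in WT Total and 87.9 and 110 CPM in WT TRAP, or -3.98 ± 0.37 (edgeR adjusted p = 7.91e-05). RR3 (AT2G41310), a type-A response regulator that dampens cytokinin signalling, is also called ARR8 and is not ARR3 (AT1G59940). RR3 had 20240 and 12210 CPM in WT Total and 1756 and 2038 CPM in WT TRAP, or -3.10 ± 0.27 (edgeR adjusted p = 4.21e-05). It was the only 1 of 9 tested type-A regulators that was called. The noncoding AT2G09250 lies wholly inside RR3 on the other strand and has almost the same counts, so the fall of either is uncertain. It spans 299 nt of the 2370-nt RR3 transcript. Its WT Total counts were 239378 and 175550, beside 240118 and 176648 at RR3. Nearly all RR3 counts may thus come from that stretch, and whether they are RR3 mRNA was not tested. Together the 12 largest fallers made up 5.12 and 3.27% of counts in WT Total and 0.443 and 0.442% in WT TRAP. That sum takes in both RR3 and AT2G09250, and the overlapping AT1G09797 and AT1G09793, so shared reads may enter it more than once. RR3 alone held 2.06 and 1.3% in WT Total and 0.181 and 0.186% in WT TRAP.

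AT2G31141, a gene of unknown function, went from 3082 and 1325 CPM to 131 and 134 CPM, or -4.05 ± 0.33 (edgeR adjusted p = 3.18e-05). AT1G49700, also of unknown function, went from 142 and 75.8 CPM to 5.52 and 4.25 CPM, or -4.49 ± 0.31 (edgeR adjusted p = 8.78e-06), and the long noncoding RNA AT4G04565 from 736 and 303 CPM to 18.1 and 20.8 CPM, or -4.74 ± 0.37 (edgeR adjusted p = 2.22e-05). In all 3, WT Total 1 was about double WT Total 2 while both TRAP libraries stayed low. RNS1, a ribonuclease secreted under phosphate shortage and wounding, had replicates in closer accord, at 27.0 and 22.7 CPM in WT Total and 7.57 and 8.11 CPM in WT TRAP, or -1.66 ± 0.19 (edgeR adjusted p = 0.00046).

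**Figure D3:**
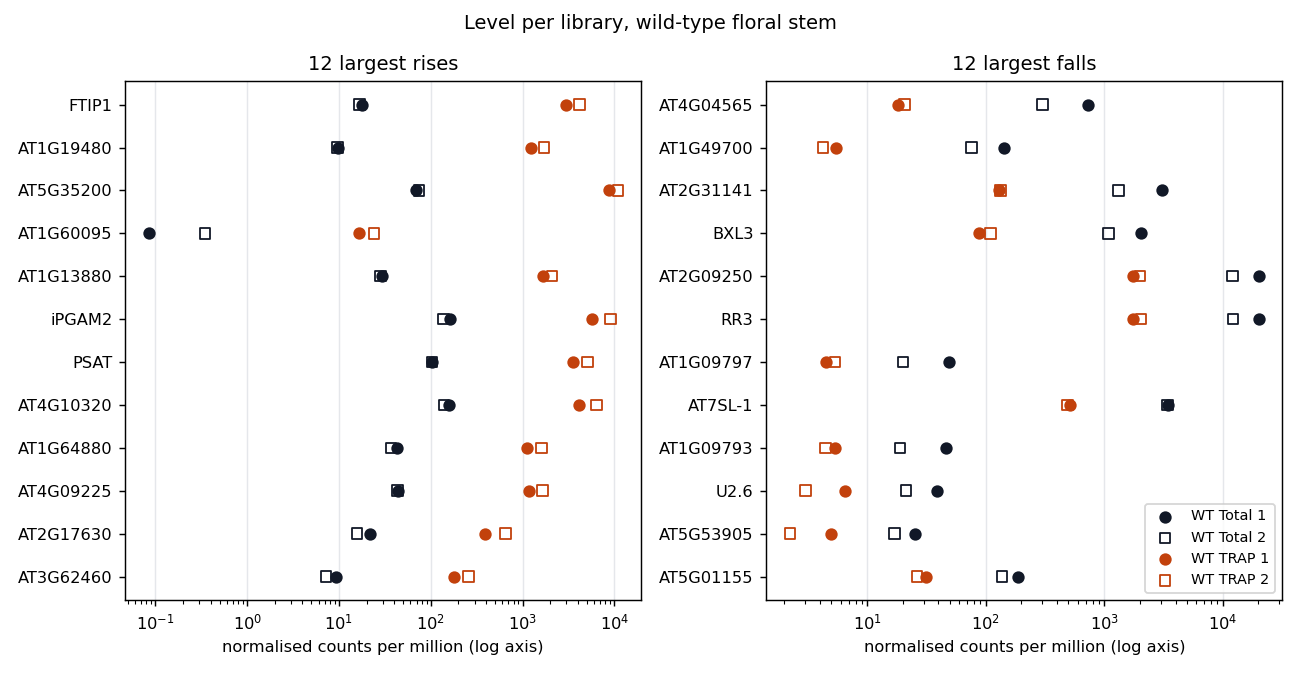
Normalised CPM (log axis) in each of the 4 WT libraries for the 12 largest rises (left) and the 12 largest falls (right). TRAP and Total values are separate for every gene shown, and WT Total 1 lies above WT Total 2 in most of the fallers.

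Some structural RNAs that are not translated were lower in TRAP, but not every class. The 2 tested rRNA loci were at 1.25 and 1.54 and were not called. Of 4 tested tRNA loci 1 was called higher and none lower, with 3 positive, 1 negative and a median of 0.83. AT7SL-1, an RNA of the particle that docks ribosomes making secreted proteins at the endoplasmic reticulum, had 3428 and 3427 CPM in WT Total and 511 and 491 CPM in WT TRAP, or -2.77 ± 0.30 (edgeR adjusted p = 0.000265). Of 20 tested spliceosomal snRNAs 6 fell, against 1.67% of all genes, and none rose, with 15 negative log2 fold changes, 5 positive and a median of -0.95. The U2 gene U2.5 went from 86.2 and 50.5 CPM to 15.0 and 16.6 CPM, or -2.11 ± 0.24 (edgeR adjusted p = 0.000433), and U2.6 from 39.3 and 21.4 CPM to 6.54 and 3.04 CPM, or -2.69 ± 0.36 (edgeR adjusted p = 0.00137). U2.3, U2.7, U4.2 and U4atac were the other 4. Of 74 snoRNAs, which guide modification of ribosomal RNA, 4 fell (5.41%), 61 log2 fold changes were negative and 13 positive, and the median was -0.83. The 4 included U3B at -2.35 ± 0.30 (edgeR adjusted p = 0.00104) and U3D at -2.30 ± 0.51 (edgeR adjusted p = 0.0239).

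The number of snRNAs called was 2 when WT TRAP 2 was left out and 4 to 6 when any other library was. For snoRNAs it was 1 after leaving out WT Total 1 or WT TRAP 2, 8 and 7 without msh1 TRAP 1 or 2, 2 under DESeq2, upper-quartile factors or removal of the length trend, and 13 with no filter on low counts. The ncRNA AT5G06165 (-2.45 ± 0.29, edgeR adjusted p = 0.000546) and the overlapping AT5G01155 (-2.49 ± 0.28, edgeR adjusted p = 0.000344) span 2 annotated snoRNAs that themselves held 0 counts, and the loci AT1G09797 and AT1G09793 share 472 nt on opposite strands, so these 4 are uncertain. The prolamin-like gene AT5G53905 (-2.59 ± 0.31, edgeR adjusted p = 0.000621) overlaps U3B by 200 nt.

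Calls went with transcript length. The median transcript was 2556 nt among genes higher in WT TRAP, 1083 nt among those lower and 1638 nt among all tested, and the median coding sequences were 1989, 669 and 1158 nt. When protein-coding genes were ranked by transcript length and divided into 5 equal classes, 0.678% of the shortest class and 9.43% of the longest were higher, and 3.77% and 0.403% were lower. The median log2 fold change went from -0.25 in the shortest class to 0.15 in the longest. In counts, the longest class held 23.6 and 24.0% of protein-coding reads in WT Total and 27.6 and 29.0% in WT TRAP.

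In msh1 the same ranking ran the other way. The median for TRAP over Total went from 0.35 in the shortest class to -0.32 in the longest, and the longest class held 22.7 and 23.1% of protein-coding reads in msh1 Total but 18.9 and 15.3% in msh1 TRAP. In the test of the difference between genotypes, 867 genes of the longest class (21.8%) were higher in WT than in msh1 and 43 lower. In the shortest class 27 were higher and 875 lower (22.0%). Over all genes 15.6% differed between the genotypes in that test. Length therefore moved with the libraries, and its part in the calls was examined only by removing a smooth length trend from each library, after which 714 of the 1076 genes were still called in the same direction.

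Genes whose proteins begin with a hydrophobic stretch, as secreted and membrane proteins commonly do at their signal peptide or anchor, were frequent among the falls. A window of 19 residues with mean Kyte-Doolittle hydropathy of at least 1.6 within the first 40 residues was present in 44.9% of proteins lower in WT TRAP, in 7.73% of those higher and in 16.0% of all. The pattern held in each length class: in the shortest, 9.38% of genes with such a stretch and 2.52% of those without it were lower, and in the longest 3.49% and 10.4% were higher. In msh1 23.3% of genes with the stretch and 10.2% of those without were lower. The share among WT falls ranged from 31.2% without WT Total 1 to 56.5% without WT TRAP 2.

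**Figure D4:**
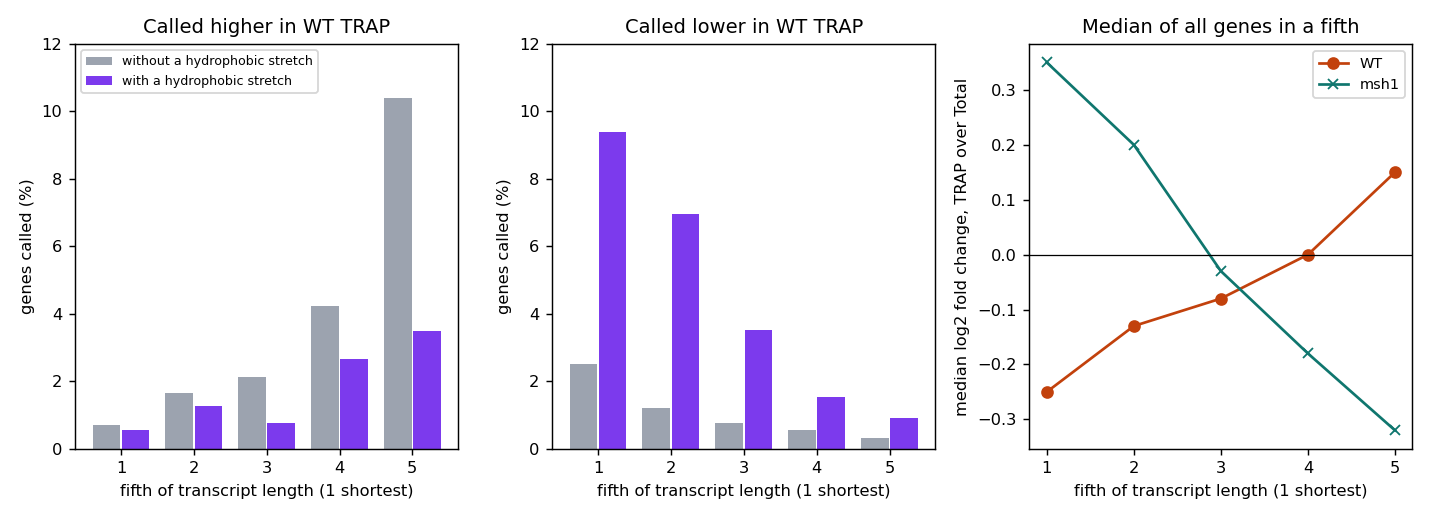
Percentage of protein-coding genes called higher (left) and lower (middle) in WT TRAP by class of transcript length, with and without a hydrophobic stretch in the first 40 residues, and the median log2 fold change of each class in WT and msh1 (right). Higher calls rise to 10.4% of long genes without a stretch, lower calls reach 9.38% of short genes with one, and the medians of WT and msh1 cross.

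By the location given in the annotation, endomembrane genes had 1.97% higher and 4.21% lower of 1831, and chloroplast genes 6.45% higher and 1.32% lower of 2200. Genes with lipid transfer wording were a family of this kind: 6 of 70 tested fell (8.57%, against 1.67% of all genes), none rose, and the median was -0.61. Lipid transfer proteins are small secreted carriers of lipids to the cell surface. The wording also covers a superfamily shared with inhibitors and seed storage albumins, and AT5G38160 and AT4G33355 carry only that wording. In msh1 9 of the 70 were higher in TRAP and 8 lower, with a median of -0.28. LTP3 had 767 and 722 CPM in WT Total and 340 and 425 CPM in WT TRAP, or -0.96 ± 0.17 (edgeR adjusted p = 0.00779), and LTP6 at 224 and 138 CPM and 60.3 and 82.6 CPM, or -1.34 ± 0.26 (edgeR adjusted p = 0.0124). AT5G38160 went from 80.7 and 83.0 CPM to 26.2 and 29.2 CPM, or -1.56 ± 0.23 (edgeR adjusted p = 0.00263), and AT4G33355 fell by 1.40 ± 0.27 (edgeR adjusted p = 0.0114). Leaving out WT Total 1 left 1 of this family called, leaving out WT Total 2, WT TRAP 1 or WT TRAP 2 left 2, and leaving out msh1 TRAP 1 or 2 gave 14 or 13.

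Defensins and defensin-like peptides had 3 of 20 lower (15.0%), none higher and a median of -0.54, and 0 or 1 was lower without WT Total 1, WT TRAP 1 or WT Total 2. AT1G77525 went from 9.19 and 5.46 CPM to 0.513 and 1.72 CPM, or -2.63 ± 0.48 (edgeR adjusted p = 0.00917), and was not called without WT Total 1 or WT TRAP 1. AT5G44973 and AT5G55132 were the other 2 and stood below 4 CPM in every WT library. Of 45 arabinogalactan proteins only FLA13, a cell-surface fasciclin protein, fell, by 0.92 ± 0.23 on the log2 scale (edgeR adjusted p = 0.0419), and it was not called when any WT or msh1 Total library was left out, with RLE factors or once the length trend was removed (adjusted p up to 0.235). With either msh1 TRAP library left out, 5 arabinogalactan genes fell and 2 rose.

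Ribosomal protein genes, chosen by product wording and so including plastid and mitochondrial forms, went with protein length as well. The wording also took in genes that may not encode ribosomal proteins, such as LOS1, MEE5 and AT3G22980, of 843, 987 and 1015 residues. Among all listed genes that were tested, 13 rose (6.22%, beside 3.41% of all genes) and 6 fell (2.87%, beside 1.67%), with a median of -0.05. The 13 encode proteins of more than 200 residues, with a median of 261, and the 6 proteins of 25 to 144 residues, with a median of 40.5. None of the 16 genes for proteins of 25 to 62 residues had a positive log2 fold change and 5 of them fell, whereas 49 of 65 genes for 204 to 298 residues were positive and 10 rose, with a median of 0.20. The class of 300 residues or more holds LOS1, MEE5 and AT3G22980. Among its 19 genes 11 were positive and 3 rose, with a median of 0.08, so the medians did not go on rising with length. The motif gene AT1G64880 is the longest of the 13.

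The L4 genes encode a large-subunit protein of 406 or 407 residues. AT3G09630 had 310 and 309 CPM in WT Total and 985 and 1462 CPM in WT TRAP, or 1.98 ± 0.24 (edgeR adjusted p = 0.000723), and AT5G02870 at 402 and 386 CPM and 1253 and 1801 CPM, or 1.95 ± 0.22 (edgeR adjusted p = 0.000332). The L41 proteins of 25 residues lay at the other end and were singled out after their values were seen. AT2G40205, which is uncertain because it shares reads, went from 20.0 and 19.5 CPM to 5.39 and 6.48 CPM, or -1.72 ± 0.22 (edgeR adjusted p = 0.00104). AT3G11120 went from 61.7 and 63.0 CPM to 26.9 and 23.5 CPM, or -1.31 ± 0.30 (edgeR adjusted p = 0.0285), and AT3G08520 from 53.2 and 45.5 CPM to 21.2 and 22.3 CPM, or -1.18 ± 0.27 (edgeR adjusted p = 0.0257). The remaining L41 genes AT3G56020 and AT1G56045 were not called, at -0.61 and -0.30. The calls of AT3G11120 and AT3G08520 ended without any one of the 4 WT libraries and once the length trend was removed (adjusted p up to 0.232 and 0.185).

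Leaving out WT Total 1, WT Total 2 or WT TRAP 2 gave 4, 4 and 5 ribosomal genes that rose and 1 that fell in each case, and leaving out WT TRAP 1 gave 12 and 1. Leaving out msh1 TRAP 1 or 2 gave 26 and 24 that rose and 14 and 13 that fell, DESeq2 gave 19 and 5, and removing the length trend gave 20 and 2. Both L4 genes and AT2G40205 kept their calls in all 16 alternatives. In msh1 83 of these ribosomal genes (39.7%) were higher in TRAP and 3 lower, with a median of 0.41.

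**Figure D5:**
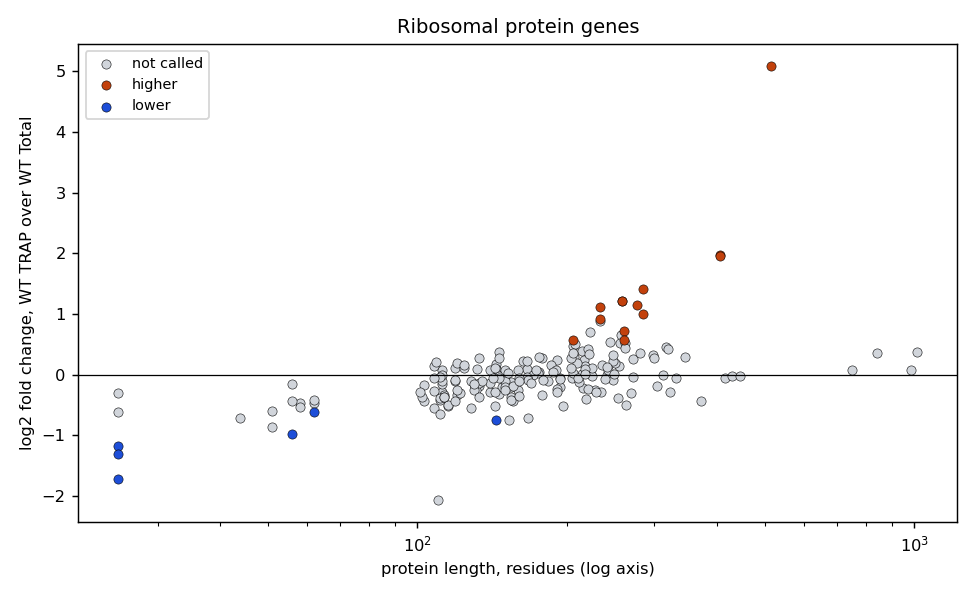
Log2 fold change of WT TRAP over WT Total against protein length in residues (log axis). Points are the tested genes with ribosomal protein wording and a protein model. The 6 genes called lower encode proteins of at most 144 residues and the 13 called higher proteins of more than 200.

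Other parts of the translation apparatus moved in few members. Among 50 initiation factor genes 3 rose (6.0%, beside 3.41% of all genes) and 2 fell (4.0%, beside 1.67%), with a median of -0.05. The eIF3 subunit genes led them, AT4G20980 at 1.48 ± 0.23 (edgeR adjusted p = 0.00394) and AT5G44320 at 1.36 ± 0.20 (edgeR adjusted p = 0.0024). AT5G44320 went from 84.4 and 77.1 CPM to 163 and 252 CPM. AT4G20980 lost its call without WT Total 2 (adjusted p up to 0.0655). The others, FUG1 (0.79), EIF4E (-0.61) and AT5G54940 (-0.79), were lost without 5 or 6 of the 8 libraries. Among genes with tRNA synthetase or ligase wording AT4G10320 rose, and AT5G12960, AT1G48450 and EMB2369 at 1.35, 0.71 and 0.79. These were 4 of 53 genes (7.55%, beside 3.41% of all genes), and none fell. That count was 1 with WT Total 2 left out, 2 with WT Total 1, WT TRAP 2 or either msh1 Total library left out, and 7 with either msh1 TRAP library left out. AT5G12960 and AT1G48450 are annotated as ligases beside a domain of unknown function, so they may not be synthetases.

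Families of long proteins had few calls, all of them higher. Their shares were near or below the 3.41% of all genes called higher, with 2.38% for ABC transporters. Of 238 pentatricopeptide repeat proteins, which process organelle RNAs, 8 rose (3.36%, near the 3.41% of all genes) and none fell, but 177 had a positive log2 fold change and the median was 0.24. EMB2279 was the largest of the 8 at 0.96 ± 0.19 (edgeR adjusted p = 0.0122). No repeat protein was called with WT Total 1, WT Total 2 or WT TRAP 2 left out, 2 were with either msh1 Total library left out, and 22 and 21 with msh1 TRAP 1 or 2 left out. In msh1 none of the 238 was higher and 39 were lower. Among 138 leucine-rich repeat receptor kinases 3 rose (2.17%) and the median was -0.15. AT1G04210 led them, from 69.95 and 65.7 CPM to 170 and 213 CPM, or 1.50 ± 0.16 (edgeR adjusted p = 0.0003), followed by the pollen kinase PRK2A at 1.29 ± 0.24 (edgeR adjusted p = 0.0098) and AT4G28650 at 0.97 ± 0.20 (edgeR adjusted p = 0.0169). PRK2A and AT4G28650 were not called without WT Total 1, WT Total 2 or WT TRAP 1. Of 87 kinesin and myosin genes, whose products move along the cytoskeleton, 3 rose (3.45%), among them POK2, a kinesin of the division plane, at 0.95 ± 0.22 (edgeR adjusted p = 0.0292), and none was called without WT Total 1, WT Total 2 or WT TRAP 2. With msh1 TRAP 1 or 2 left out, 11 and 10 motor genes rose. Of 42 ABC transporter genes only ABCF1 rose, from 196 and 189 CPM to 299.7 and 326 CPM, or 0.70 ± 0.14 (edgeR adjusted p = 0.0151), and it was not called without WT Total 1, WT Total 2 or WT TRAP 2 (adjusted p up to 0.212). Histone genes, which encode short proteins, had 2 of 46 lower (4.35%, beside 1.67% of all genes), with a median of -0.32. They were RAT5 at -0.72 and AT3G27360 at -1.26, and neither call survived the loss of any WT or msh1 Total library. In msh1 30 of the 46 were higher in TRAP, with a median of 0.98.

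Of 8 tested genes with the plant C2-domain wording of FTIP1, 4 rose, with a median of 0.76. Besides FTIP1 these were AT5G17980 at 1.28 ± 0.30 (edgeR adjusted p = 0.0303), AT3G03680 at 1.06 ± 0.27 (edgeR adjusted p = 0.0466) and QKY, which shapes organs and root hairs through cell-to-cell signalling, at 0.84 ± 0.18 (edgeR adjusted p = 0.0216). Only FTIP1 was called without WT Total 1, WT Total 2 or WT TRAP 2, or once the length trend was removed. The 3 relatives lack the motif and stayed far below it in size of change.

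Genes for organelle DNA and its transcription were of interest because MSH1 acts on organelle genomes. Of 17 tested, 4 rose (23.5%, against 3.41% of all genes) and none fell, with a median of 0.48. The gyrase subunits, which untwist organelle DNA, rose by 1.34 ± 0.24 for GYRA (edgeR adjusted p = 0.00823) and 1.06 ± 0.17 for GYRB1 (edgeR adjusted p = 0.00472). GYRA had 45.9 and 42.9 CPM in WT Total and 81.1 and 143 CPM in WT TRAP, so WT TRAP 2 was well above WT TRAP 1. The phage-type RNA polymerase gene AT5G15700 rose by 1.02 ± 0.21 (edgeR adjusted p = 0.0147) and the organelle DNA polymerase POLGAMMA1 by 0.80 ± 0.16 (edgeR adjusted p = 0.0156). Without WT Total 1 none of the 4 was called, and without WT Total 2 or WT TRAP 2 only GYRB1 was. All 4 encode long transcripts of 2759 to 3659 nt, and the call of POLGAMMA1 ended when the length trend was removed. Their relatives on the list were not called: GYRB2 at 0.21, RPOTM at 0.64, RPOTP at 0.51 and POLIA at 0.32. In msh1 none of the 17 was higher in TRAP and 4 were lower, with a median of -0.21.

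Marker lists of stem cell types showed few calls, where 3.41% of all genes were called higher and 1.67% lower. The xylem and secondary wall genes typical of a stem were present: all 21 listed passed the filter, with summed levels of 1895 and 1926 CPM in WT Total and 2051 and 2420 CPM in WT TRAP. In that list XCP2, a peptidase of maturing vessels, went from 65.5 and 58.1 CPM to 24.1 and 34.2 CPM, or -1.08 ± 0.19 (edgeR adjusted p = 0.00698), and the secondary wall regulator NAC012 rose by 0.67 ± 0.17 (edgeR adjusted p = 0.0409). XCP2 was not called without WT Total 1 or WT TRAP 1 (adjusted p up to 0.0929). Of 25 epidermal genes only PDF1, a cell-wall protein of the outer layer, was called, from 35.9 and 34.5 CPM to 17.2 and 21.0 CPM, or -0.88 ± 0.16 (edgeR adjusted p = 0.00847). Its call ended without WT Total 1, WT Total 2 or WT TRAP 1 (adjusted p up to 0.112).

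Of 16 phloem genes tested, FTIP1 rose and the sucrose exporter SWEET12 fell, at -0.62 ± 0.16 (edgeR adjusted p = 0.0432), and the list's median was -0.10. The summed phloem level of 947 and 939 CPM in WT Total against 3699 and 5150 CPM in WT TRAP came mostly from FTIP1, which had 2950 and 4161 CPM in WT TRAP. Of 16 stomatal genes the guard-cell anion channel OZS1, also called SLAC1, rose by 0.85 ± 0.22 (edgeR adjusted p = 0.0455) and is uncertain because it shares reads. The list as a whole leaned the other way, with 14 of 16 log2 fold changes negative and a median of -0.36, though no member was called lower. The calls of SWEET12, NAC012 and OZS1 ended in 6 of the 8 fits without a library, with adjusted p up to 0.29, 0.336 and 0.336. None of 27 photosynthesis genes, 12 cambium genes, 21 cell division genes, 11 floral organ genes, 11 touch genes, 7 heat shock genes and 11 hypoxia genes was called, with list medians between -0.23 and 0.06. In a bulk sample, fewer cells of a type and less RNA per cell cannot be told apart. Nor can the set of cells that make the tagged protein and the share of an mRNA on tagged ribosomes.

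Markers of reproductive tissue were present in both fractions. Of 8 anther and pollen genes tested, only the pollen-tube pectin methylesterase genes VGD1 and VGDH1 were called. They rose by 0.92 ± 0.24 (edgeR adjusted p = 0.0498) and 1.37 ± 0.32 (edgeR adjusted p = 0.0294). VGDH1 had 28.2 and 22.3 CPM in WT Total and 66.1 and 64.7 CPM in WT TRAP. Log2 fold changes in that list were positive for 6 genes and negative for A9 (-0.37) and AMS (-0.14), with a median of 0.58. In msh1 none of the 8 was higher in TRAP and 3 were lower, with a median of -0.88. Of 13 seed genes the storage albumins SESA1 and SESA5 fell (15.4%, beside 1.67% of all genes), and the list's median was -0.73. They fell by 1.12 ± 0.27 (edgeR adjusted p = 0.0349) and 1.30 ± 0.30 (edgeR adjusted p = 0.0279). Summed seed levels were 2542 and 2119 CPM in WT Total and 944 and 2046 CPM in WT TRAP, so WT TRAP 2 came close to Total. The calls of all 4 ended without WT Total 1, WT Total 2 or WT TRAP 1, those of VGD1, VGDH1 and SESA1 also without WT TRAP 2, and those of VGD1, SESA1 and SESA5 once the length trend was removed (adjusted p up to 0.288 for VGD1, 0.237 for VGDH1, 0.226 for SESA1 and 0.203 for SESA5). The part of tissue from flowers or siliques in these values was not tested.

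The genes of the construct did not mark the TRAP libraries in wild type. MSH1 had 9.27 and 9.61 CPM in WT Total and 12.3 and 13.98 CPM in WT TRAP, or 0.48 ± 0.23 (edgeR adjusted p = 0.259). The gene RPL18 (AT3G05590) had 293 and 273 CPM in WT Total and 278 and 270 CPM in WT TRAP, or -0.05 ± 0.27 (edgeR adjusted p = 0.946). In msh1 RPL18 was higher in TRAP by 2.01 (edgeR adjusted p = 0.000589), and the difference between genotypes was -2.06 ± 0.39 (edgeR adjusted p = 0.00597). Whether reads of a transgene were counted at this locus is not stated in the labels.

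The motif genes largely rose in msh1 too, where 14.1% of all genes were higher in TRAP and 12.1% lower. Of the 44, 25 were higher and 2 lower in msh1, with a median of 0.76, and 22 were higher in both genotypes. FTIP1 was at 7.68 in WT and 7.49 in msh1, AT1G19480 at 7.25 and 7.44, and PSAT at 5.38 and 5.10, and the difference between genotypes was not called for these 3 (edgeR adjusted p = 0.705, 0.841 and 0.534). AT4G10320 rose more in WT, at 5.15 against 3.80, with a difference of 1.35 ± 0.30 (edgeR adjusted p = 0.0116).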

How the data were processed

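Per the labels, RNA of floral stems was made into libraries with the TruSeq RNA v2 preparation and read as 100-bp paired ends. For every library the authors deposited a table of whole-number read counts per locus, without normalization. The submitters' processing notes name TAIR10 and DESeq2. No aligner, counter or strand setting is given in the sources used here, and this preparation does not mark strand. The 5 closing lines of a table hold no locus and were kept out of all sums. In the WT libraries they gave 39.71 to 40.48% of reads with no gene, 14.81 to 16.69% not uniquely aligned, and an ambiguous share of 0.159 to 0.182% (TRAP) or 0.595 to 1.12% (Total). Plastid and mitochondrial loci held 0 counts and were left out. WT gene counts summed to 11638497 and 13611280 (Total) and 7568728 and 10816397 (TRAP), where a floor of 3 counts is 0.207 to 0.385 CPM. Floors cover counting error only.

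Counts were tested with edgeR 4.0.16 (R 4.3.3): filterByExpr, TMM scaling, and a quasi-likelihood F test in 1 fit of all 8 libraries and 4 groups, with 4 residual degrees of freedom and Benjamini-Hochberg adjustment over 21202 genes at 0.05. The labels call the replicates biological, and p-values measure the spread of 2 libraries in each of 4 groups. Replicates differed by more than counting noise, and most in msh1 TRAP. Chi-square per degree of freedom was 6.705 in WT Total, 8.928 in WT TRAP, 4.979 in msh1 Total and 16.62 in msh1 TRAP. The fit shares 1 estimate of the spread per gene over the 4 groups. In simulated counts for this contrast on 21202 genes, 50 of 50 genes changed 4-fold in each direction were called. Of genes changed 2-fold, 39 of 50 up and 36 of 50 down were called. There were 19 false calls, a larger share of all simulated calls than the threshold of 0.05.

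All 32548 loci matched the TAIR10.1 annotation by identifier, which gave symbols, coordinates, transcripts and proteins (longest coding model per gene). TAIR10 and TAIR10.1 share locus identifiers, and coordinates are those of TAIR10.1. Loci that share at least 0.5 of the shorter locus's exons with a locus of at least 0.2 times as many counts are called uncertain (1916 of those tested). Paralogs came from blastp 2.17.0. Genes were named by rule: the 12 largest rises and falls among called genes with at least 5 CPM and no overlap of groups, the 3 smallest p per direction, up to 4 members of each list, paralogs of risers, MSH1 and RPL18. The motif genes, more family members and looser motifs were added after values were seen. Members and gene lists were chosen with earlier results of these data known. Alternatives were RLE and upper-quartile scaling, DESeq2 1.42.0, no filter, the 4 WT libraries alone, a replicate block, removal of a smooth length trend, both together, and leaving out each library.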

Additional observations from a re-analysis of the deposited data

Results flagged for a closer look

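The change of TRAP over Total differed between wild type and msh1 by the test of that difference (edgeR, adjusted over all genes), in which 15.6% of all genes were called. Values are WT minus msh1 on the log2 scale.

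Among motif genes, TRAP over Total was higher in WT for AT4G10320 (1.35), AT3G49840 (1.03), AT1G57720 (0.84), AT3G04470 (0.79) and TGG1 (1.19), and lower in WT for RS41 (-1.94), POR (-1.07) and AT5G17000 (-0.96). The paralog AT5G48060 differed by 1.50 and RPL18 by -2.06.

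Among the large falls, WT fell further than msh1 for AT4G04565 (-2.29), BXL3 (-1.86), AT2G09250 (-2.01), RR3 (-1.99), AT5G01155 (-1.99) and AT5G06165 (-1.95). NFXL1 rose more in WT (1.41) and AT3G60080 less (-0.77).

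List members with a positive difference were OZS1 (1.72), VGDH1 (1.55), VGD1 (1.54), GYRB1 (1.34), GYRA (1.17), AT5G15700 (1.21) and POLGAMMA1 (1.09), and SWEET12 was negative (-0.85).

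Some members of long-protein families, all of them called higher in WT, had positive differences. They were the repeat proteins AT5G10690 (1.00), AT1G18900 (1.02) and EMB2279 (1.45), and the receptor kinases AT1G04210 (1.27), AT4G28650 (1.04) and PRK2A (1.97). The motors POK2 (1.51) and AT1G49870 (1.28), the C2-domain genes QKY (1.04) and AT3G03680 (1.81), and ABCF1 (0.66) also had positive differences. So had AT1G48450 (0.87), AT5G12960 (1.32) and EMB2369 (1.27) of the synthetase list, and the initiation factors FUG1 (1.14) and AT5G44320 (1.12). Negative differences came from genes called lower in WT, for proteins of 62 to 235 residues. They were the ribosomal protein S30 gene AT2G19750 (-1.30), EIF4E (-1.32), AT5G54940 (-2.0) and the histones RAT5 (-1.75) and AT3G27360 (-2.04). The genes of this paragraph were named for their WT calls, so the sign of the difference was partly set by that choice.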

How the results depend on the processing

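The 24 genes with the largest changes kept their calls under all 16 alternatives. Genes called numbered 1076, 2011 with no filter on low counts (1144 higher and 867 lower, 237 at least 2-fold lower), 1871 in the 4 WT libraries alone (1281 higher and 590 lower), and 658 with the replicate block and the length trend removed together (156 lower, 56 at least 2-fold lower). Removing the length trend alone left 66 genes at least 2-fold lower, beside 123. Leaving out 1 library gave 167 to 2310 calls, 133 to 1519 higher, 31 to 791 lower, 133 to 416 at least 2-fold higher and 31 to 146 at least 2-fold lower. The most calls came with an msh1 TRAP library left out, 2310 and 2245, and the cause was not tested. The replicate block gave 742 calls, of which 736 were shared with the fit without it, and 210 lower. The labels do not say that numbers pair Total with TRAP, and deviations of same-numbered WT libraries had a correlation of -0.243, so no pairing was used. Motif genes called higher numbered 28 to 32 wherever all WT libraries were kept. With no filter 56.9% of calls were higher, beside 67.1% with upper-quartile factors. Removing the length trend moved the median transcript length of genes called higher to 1982 nt and of those called lower to 1726 nt. Low counts limit AT1G60095 and AT1G50400, which had few Total reads.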
